A study of Mus musculus with 3 samples.

Results

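The 10 genes described here encode inflammatory cytokines, the inflammasome sensor that precedes the release of some of them, and their receptors: Il1b, Tnf, Il6, Il10 and Il18 (ligands), Il1rn (the secreted antagonist of the interleukin-1 receptor), Nlrp3 (the sensor), and Il1r1, Tnfrsf1a and Tnfrsf1b (receptors). They were chosen by name from the 32285 genes counted, and their unique molecular identifiers (UMIs, each standing for 1 captured RNA molecule) were read class by class in single nuclei of frozen mouse liver. All 3 animals were male C57BL/6 J mice. The ND mouse received a normal diet and no streptozotocin (STZ). The 2 STZ-HFHC mice (1 and 2) received 0.2 mg of STZ at 3 days of age, which damages the insulin-producing beta cells, and a high-fat, high-cholesterol (HFHC) diet from 4 weeks of age, a model of MASH-related liver fibrosis. Each mouse gave 1 library, and the age at sampling is not given in the sources used here. STZ and the diet were always given together, so their parts cannot be told apart, and the ND title carries a code beginning with 3rd where both STZ-HFHC titles carry codes beginning with 2nd, whose meaning is not stated. With 1 ND mouse there is no spread between ND mice, so no test between the conditions was possible: intervals below are exact 95% intervals that cover counting error only, and SD is over the 2 STZ-HFHC mice.

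Interleukin-1β is made as an inactive precursor after Toll-like receptor and NF-κB signalling has raised its mRNA. NLRP3 then assembles, with an adaptor and caspase-1, into the inflammasome that cleaves the precursors of interleukin-1β and interleukin-18. In the liver these cytokines are mostly ascribed to resident macrophages (Kupffer cells) and to monocytes recruited in steatohepatitis, whereas hepatocytes carry the receptors and answer with acute-phase proteins. IL-1 receptor antagonist occupies the interleukin-1 receptor without signalling, and interleukin-10 restrains macrophage activation.

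The promoters of 3 genes known as targets of NF-κB are shown because their levels in macrophage-like nuclei differed in opposite directions: Il1b was lower in STZ-HFHC, and Tnf and Il1rn had 0 UMIs in ND. Each window runs from 250 bases before to 50 bases after the start of the transcript (RefSeq, GRCm38.p6), 5′ to 3′ on the gene's strand. Capitals mark GGG followed by any 5 bases and CC, the outer letters of the NF-κB motif, on either strand; matches may overlap.
Il1b, chr2:129371090-129371389, minus strand: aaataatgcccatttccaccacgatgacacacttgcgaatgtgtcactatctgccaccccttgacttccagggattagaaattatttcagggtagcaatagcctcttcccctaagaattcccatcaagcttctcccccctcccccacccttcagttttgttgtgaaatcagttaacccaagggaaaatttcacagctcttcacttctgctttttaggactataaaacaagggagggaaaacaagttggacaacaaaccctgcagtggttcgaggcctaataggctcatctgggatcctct
Tnf, chr17:35201958-35202257, minus strand: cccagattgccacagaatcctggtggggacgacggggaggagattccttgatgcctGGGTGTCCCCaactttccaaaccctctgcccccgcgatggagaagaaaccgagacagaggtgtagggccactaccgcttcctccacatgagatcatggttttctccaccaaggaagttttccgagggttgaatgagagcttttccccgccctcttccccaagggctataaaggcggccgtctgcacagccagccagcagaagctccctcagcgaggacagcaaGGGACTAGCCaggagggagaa
Il1rn, chr2:24336610-24336909, plus strand: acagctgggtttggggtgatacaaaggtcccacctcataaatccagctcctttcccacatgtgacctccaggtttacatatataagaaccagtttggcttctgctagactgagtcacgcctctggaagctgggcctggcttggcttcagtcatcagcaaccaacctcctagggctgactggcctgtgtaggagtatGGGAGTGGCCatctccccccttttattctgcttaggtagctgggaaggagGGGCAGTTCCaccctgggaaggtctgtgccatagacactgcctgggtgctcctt
The Il1b window held 0 matches. The Tnf window held 3, of which a pair share the letters beginning 194 bases before the start on both strands and the other begins 30 bases after it. This Il1rn window held 2, beginning 54 and 4 bases before the start. Il1rn had 2 further windows, not printed here, at chr2:24345041-24345340 and chr2:24345121-24345420, which overlap each other. They held 1 match each, beginning 30 bases after and 51 bases before their starts. The form of the antagonist made from each start was not examined. These letters are common: 50.8% of 32851 windows of the same length held them. Of the 9 members with a window (Il10 had no entry), 7 had a match in at least 1 window, against 53.5% of 27025 genes, and Il18 was the other member without one.

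Macrophage-like and monocyte-like nuclei were scarce in ND. Values given for all 3 libraries are for ND, STZ-HFHC 1 and STZ-HFHC 2, in this order. Of 30989 barcodes, 28336 passed the limits on genes and mitochondrial RNA: 8494 in ND against 8921 and 10921 in STZ-HFHC mice 1 and 2, with a median of 4068, 3015 and 4027 UMIs. The kept nuclei held 42715797, 44350401 and 55632923 of the 77617520, 73942732 and 72934861 UMIs of all barcodes. Values over all nuclei or a library as a whole are of these kept nuclei. Each pair of libraries shared 29 to 32 barcodes. Of 23 clusters, 4 were left unnamed and the others were named in 10 classes from fixed marker lists. Macrophage-like nuclei were 242 in ND against 1745 and 1178 in STZ-HFHC mice 1 and 2, with medians of 2202, 1695 and 1701 UMIs. UMIs of all 18 macrophage markers were present in them in each library. The ND nuclei came mainly from cluster 20 (11 of 18 macrophage markers raised) and the STZ-HFHC nuclei from cluster 6 (14 of 18) and cluster 8 (6 of 18), so the class was made up of different clusters in ND and STZ-HFHC. Monocyte-like nuclei, all of cluster 10, were 40, 642 and 472 and also had 4 of 8 dendritic cell markers raised. Cluster 7 had both endothelial and macrophage markers raised, held 23, 699 and 765 nuclei and is given by number. Of its nuclei, 0%, 24.6% and 14.9% were among the highest 8% of doublet scores of their library.

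Hepatocyte RNA was present in every class. The summed level of 10 hepatocyte markers in macrophage-like nuclei was 0.868 times that of hepatocyte-like nuclei in ND against 0.615 times and 0.767 times in STZ-HFHC mice 1 and 2. The level in hepatocyte-like nuclei is therefore given beside that of the macrophage-like nuclei. No cluster was neutrophil-like. In macrophage-like nuclei the 8 neutrophil markers summed to 34.8, 54.9 and 54.4 counts per 1000000 UMIs (CPM), with 6, 0 and 2 of the 8 at 0. Most of it was Csf3r, with 32, 211 and 171 UMIs, and S100a8 had 0, 7 and 4. The part of these RNAs in the results below was not tested.

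Il1b was highest in the ND library and lower in both STZ-HFHC libraries, over all nuclei kept and in macrophage-like nuclei. These are counts of RNA in nuclei, which may miss mRNA of the cytoplasm. By qRT-PCR of liver, the study that reported these data found Tnf, Il1b, Il6 and Il10 upregulated in its vehicle-treated STZ-HFHC group. The reason for the difference in Il1b and Il6 was not tested. Over all nuclei, Il1b (ENSMUSG00000027398, chr2:129364570-129371139, minus strand) had 535 UMIs in ND against 279 and 255 in STZ-HFHC mice 1 and 2. These were 12.5 CPM (11.5–13.6), 6.29 (5.57–7.07) and 4.58 (4.04–5.18). The level relative to ND was 0.502 (0.433–0.582) and 0.366 (0.314–0.426), a mean log2 ratio of −1.22 ± 0.32 (SD, n = 2 mice). Neither STZ-HFHC interval overlapped that of ND. A sum over all nuclei mixes the number of nuclei of each class with the RNA in each nucleus, which the values by class separate.

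In macrophage-like nuclei the difference in Il1b was larger. ND had 73 UMIs in 242 nuclei, STZ-HFHC 1 had 70 in 1745 and STZ-HFHC 2 had 39 in 1178. The levels were 77.0 CPM (60.4–96.8), 15.6 (12.2–19.7) and 11.3 (8.07–15.5), against 6.30, 1.06 and 1.16 CPM in hepatocyte-like nuclei of the same libraries. The ratios to ND were 0.203 (0.144–0.285) and 0.147 (0.0972–0.22), a mean log2 ratio of −2.53 ± 0.32 (SD, n = 2 mice). Thinned to 1000 UMIs each, 28 of 184 ND nuclei (15.2%), 26 of 1445 (1.80%) and 14 of 958 (1.46%) STZ-HFHC nuclei had an Il1b UMI, against 0.913%, 0.112% and 0.0959% of hepatocyte-like nuclei, whose median depths before thinning were 4045, 7880 and 6552 UMIs. Without thinning the macrophage-like shares were 23.6%, 3.21% and 2.72%. Doublet scores also differed, since 2.48% of ND macrophage-like nuclei, against 14.6% and 15.9% in STZ-HFHC mice 1 and 2, were among the highest 8% of doublet scores of their library; without those scores the mean log2 ratio was −2.13.

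Both clusters of STZ-HFHC macrophage-like nuclei had less Il1b than the ND cluster. ND cluster 20 had 71.5 CPM. Cluster 6, with the lipid-associated macrophage genes Gpnmb and Mmp12 among its leading genes, had 19.0 and 16.7 CPM in STZ-HFHC mice 1 and 2, which was 0.267 (0.181–0.391) and 0.234 (0.14–0.379) times cluster 20. Cluster 8, with Asb2, Slc7a8 and Vsig4 among its leading genes, had 10.5 and 7.49 CPM, or 0.147 (0.0834–0.249) and 0.105 (0.0555–0.186) times. Divided by the UMIs of the 18 macrophage markers in the same nuclei rather than by all UMIs, Il1b stood at 57.0 per 1000 marker UMIs in ND against 6.25 and 6.57 in STZ-HFHC mice 1 and 2. Of the 9 Kupffer cell markers, which summed to 758, 1362 and 804 CPM in macrophage-like nuclei, Clec4f, Timd4 and Cd163 were lower in both STZ-HFHC mice than in ND. Vsig4, Marco, Folr2, Clec1b and Cd5l were higher in both, and Id3 was higher in mouse 1 and lower in mouse 2.

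Monocyte-like nuclei held the highest Il1b level of any class in both STZ-HFHC livers. The class had 38.4 CPM (28.6–50.5) from 51 UMIs in mouse 1 and 56.9 CPM (42.9–74.1) from 55 UMIs in mouse 2. In ND it had 5 UMIs, 61.8 CPM (20.1–144), and the ratios of 0.622 (0.25–2.00) and 0.921 (0.372–2.95) showed no difference detectable at this depth. In STZ-HFHC 1 the interval overlapped those of 2 other classes, among them cluster 7 (23.4 CPM), and in STZ-HFHC 2 it overlapped none. There, 12 of the 55 UMIs were in 1 nucleus. In ND the 23 nuclei of cluster 7 were highest, with 20 UMIs and 201 CPM (123–310), followed by the macrophage-like nuclei.

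The lower Il1b level was found outside the myeloid classes as well. Endothelial-like nuclei had 20.1 CPM in ND against 4.70 and 6.60 in STZ-HFHC mice 1 and 2, with ratios of 0.233 (0.124–0.404) and 0.327 (0.212–0.490). Stellate-like nuclei had 17.0, 5.70 and 3.82 CPM. Hepatocyte-like nuclei, at 6.30, 1.06 and 1.16 CPM, had ratios of 0.168 (0.105–0.259) and 0.184 (0.124–0.266). The nuclei from which the UMIs came differed accordingly. In ND, 26.9% of Il1b UMIs were in endothelial-like, 26.5% in hepatocyte-like, 22.2% in stellate-like and 13.6% in macrophage-like nuclei. In STZ-HFHC 1, 32.3% were in cluster 7, 25.1% in macrophage-like and 18.3% in monocyte-like nuclei, and in STZ-HFHC 2 the shares were 25.5%, 15.3% and 21.6%. Macrophage-like nuclei made up 2.22%, 10.1% and 6.18% of all UMIs, so Il1b was over-represented in them in each library. RNA of one class in droplets of another, which the hepatocyte markers above show, was not separated from transcription in these shares.

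**Figure D1:**
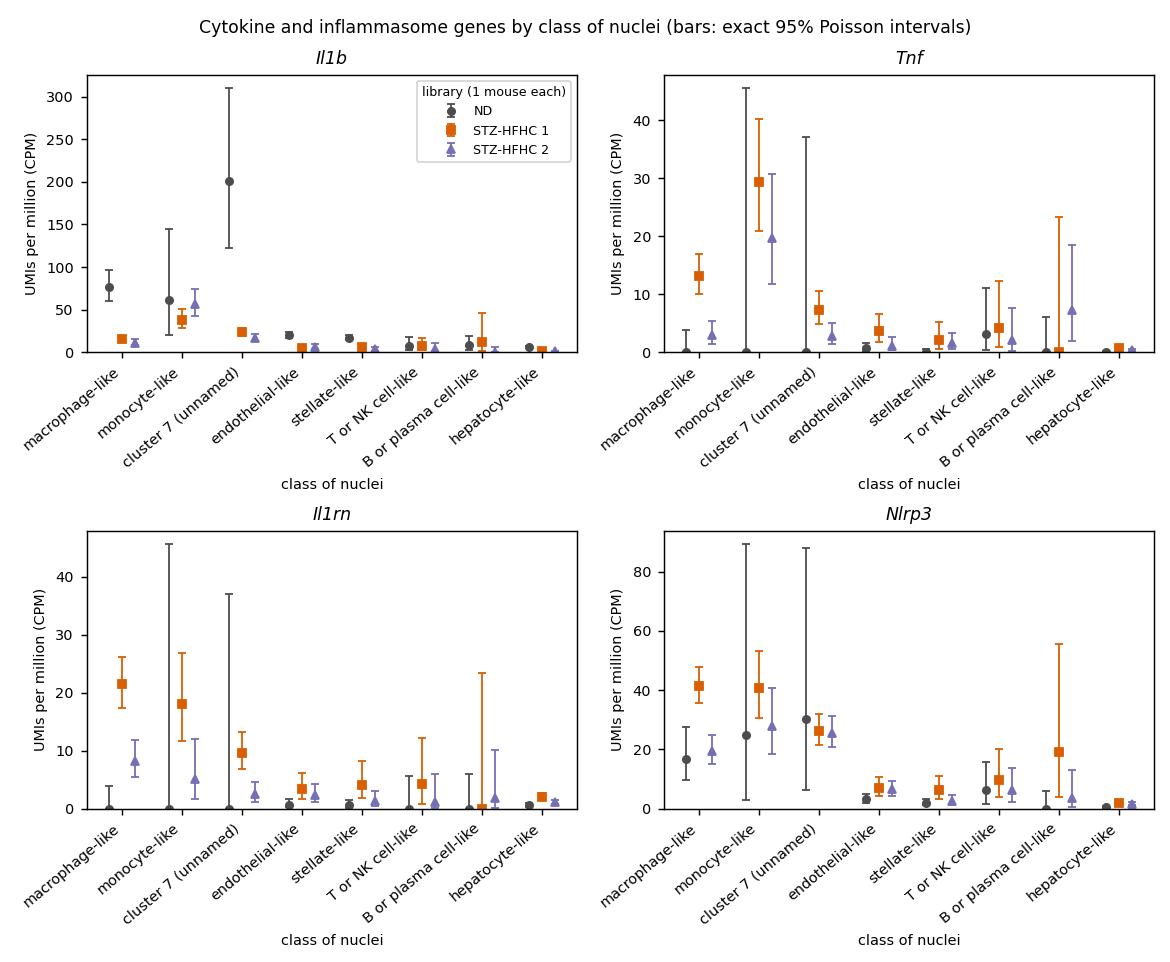
Level of Il1b, Tnf, Il1rn and Nlrp3 (1 panel each) in CPM, summed over the nuclei of each of 8 classes (x axis) in the ND, STZ-HFHC 1 and STZ-HFHC 2 libraries (1 point each). Bars are exact 95% Poisson intervals and cover counting error only. Il1b in macrophage-like nuclei was 77.0 CPM in ND against 15.6 and 11.3, whereas Il1rn and Tnf had 0 UMIs in the ND macrophage-like nuclei.

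Tnf, which encodes the tumour necrosis factor, had few UMIs in the ND library and its highest level in monocyte-like nuclei in both STZ-HFHC libraries. Over all nuclei, Tnf (ENSMUSG00000024401, chr17:35199381-35202007, minus strand) had 8 UMIs in ND against 176 and 70 in STZ-HFHC mice 1 and 2, or 0.187, 3.97 and 1.26 CPM. The ratios were 21.2 (10.5–49.8) and 6.72 (3.23–16.2). Both STZ-HFHC libraries were above ND, and STZ-HFHC 1 was above STZ-HFHC 2. In macrophage-like nuclei there were 0, 59 and 10 UMIs. A count of 0 in ND allows up to 3 UMIs, or 3.16 CPM, so the 13.2 CPM (10.0–17.0) of STZ-HFHC 1 was at least 4.16-fold higher than this floor (the exact lower limit of the ratio itself was 3.28), while the 2.91 CPM (1.39–5.35) of STZ-HFHC 2 was below that limit and gives no fold. Monocyte-like nuclei had 29.4 CPM (20.9–40.2) from 39 UMIs in mouse 1 and 19.7 (11.8–30.7) from 19 in mouse 2. The 40 ND nuclei of this class had 0, which at their depth allows up to 37.1 CPM, so that no difference was detectable. In hepatocyte-like nuclei Tnf had 0.0444, 0.765 and 0.322 CPM, in STZ-HFHC below both of these classes. Macrophage-like and monocyte-like nuclei held 33.5% and 22.2% of the Tnf UMIs of mouse 1 and 14.3% and 27.1% of those of mouse 2.

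Il1rn, the antagonist, showed the reverse of Il1b. Over all nuclei, Il1rn (ENSMUSG00000026981, chr2:24336853-24351494, plus strand) had 23 UMIs in ND against 259 and 105 in STZ-HFHC mice 1 and 2. The levels were 0.538 CPM (0.341–0.808), 5.84 (5.15–6.60) and 1.89 (1.54–2.28), with ratios of 10.8 (7.07–17.4) and 3.51 (2.22–5.77). The 3 intervals did not overlap. In macrophage-like nuclei there were 0, 96 and 28 UMIs, at 0, 21.4 (17.3–26.1) and 8.14 CPM (5.41–11.8), which was at least 6.77- and 2.57-fold higher than the floor of 3 UMIs in ND. The exact lower limits of the ratios themselves were 5.40 and 1.96. Cluster 6 held most of them, with 31.7 CPM from 85 UMIs in mouse 1 and 17.4 CPM from 25 UMIs in mouse 2, whereas cluster 8 had 11 and 3 UMIs. Hepatocyte-like nuclei had 0.577, 2.00 and 1.13 CPM. Monocyte-like nuclei had 0, 24 and 5 UMIs. One nucleus of STZ-HFHC 1 held 14 Il1rn UMIs.

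Set side by side, the UMIs of Il1b and of its antagonist stood in different proportions in the 3 livers. Of the UMIs of both genes in all nuclei, Il1b made up 95.9% (93.9–97.4) in ND against 51.9% (47.5–56.2) and 70.8% (65.8–75.5) in STZ-HFHC mice 1 and 2. In macrophage-like nuclei it made up 100% of 73 UMIs (95.1–100), 42.2% (34.6–50.1) and 58.2% (45.5–70.2). In monocyte-like nuclei the shares were 100% of 5 UMIs, 68% (56.2–78.3) and 91.7% (81.6–97.2). The proportions also differed outside the myeloid classes. Hepatocyte-like nuclei had 142, 25 and 36 Il1b UMIs beside 13, 47 and 35 of Il1rn. Endothelial-like nuclei had 144, 14 and 29 beside 5, 10 and 10, and stellate-like nuclei 119, 11 and 15 beside 4, 8 and 5. The part of RNA from other classes in these counts was not tested. A share of UMIs of 2 genes in the same nuclei does not depend on the total by which they are scaled. Of the 242, 1745 and 1178 macrophage-like nuclei, 57, 56 and 32 had an Il1b UMI and 0, 57 and 20 an Il1rn UMI. UMIs of both were in 0, 2 and 1 nuclei. With so few nuclei holding either, this overlap does not show whether the 2 genes lay in separate nuclei.

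**Figure D2:**
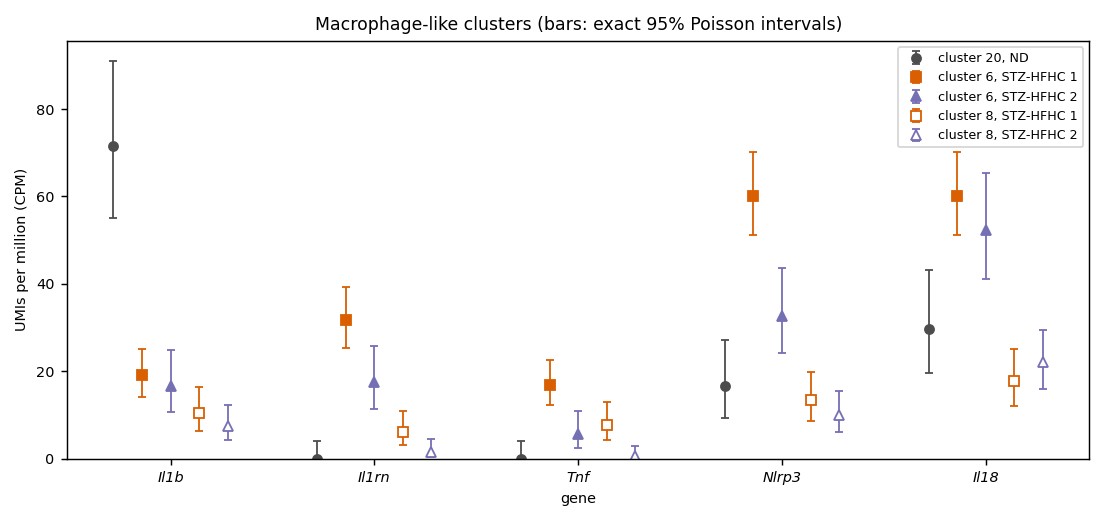
Levels of Il1b, Il1rn, Tnf, Nlrp3 and Il18 in CPM in the clusters that make up the macrophage-like nuclei: cluster 20 of ND, and clusters 6 and 8 of STZ-HFHC 1 and STZ-HFHC 2. Bars are exact 95% Poisson intervals; Il1b was 71.5 CPM in cluster 20 against 7.49 to 19.0 elsewhere, and Il1rn was 31.7 and 17.4 CPM in cluster 6 against 0 UMIs in cluster 20.

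Il6 and Il10 were too scarce for most comparisons by class. Il6 (ENSMUSG00000025746, chr5:30013114-30019981, plus strand), an inducer of the acute-phase response, had 25 UMIs in ND and 6 and 7 in the STZ-HFHC libraries, or 0.585 CPM (0.379–0.864), 0.135 (0.0496–0.294) and 0.126 (0.0506–0.259). The ratios of 0.231 (0.0776–0.577) and 0.215 (0.0785–0.511) lay below 1 in both mice. Macrophage-like nuclei held 2, 0 and 0 of these UMIs, and hepatocyte-like nuclei 9, 0 and 3. Il10 (ENSMUSG00000016529, chr1:131019845-131024974, plus strand) had 19, 22 and 149 UMIs, at 0.445, 0.496 and 2.68 CPM (2.27–3.14), and only STZ-HFHC 2 stood apart. Its macrophage-like nuclei did not carry that difference, with 5, 9 and 10 UMIs and overlapping intervals at 5.27 (1.71–12.3), 2.01 (0.918–3.81) and 2.91 CPM (1.39–5.35). Hepatocyte-like nuclei held 8, 2 and 82 UMIs, or 0.355, 0.0850 and 2.64 CPM (2.10–3.27). Within them, cluster 3, led by Sds and Hal, had 56 Il10 UMIs in 1906 nuclei of STZ-HFHC 2 and 0 in 742 nuclei of STZ-HFHC 1. Endothelial-like nuclei of STZ-HFHC 2 also had 3.64 CPM (2.08–5.91) against 0.700 in ND and 0 in STZ-HFHC 1.

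Il18, whose product is the other cytokine released through the inflammasome, was spread over hepatocyte-like, endothelial-like, stellate-like and myeloid nuclei. In ND the first 3 of these classes had 16.9, 16.4 and 16.0 CPM. Per 1000 hepatocyte marker UMIs they had 0.869 (0.784–0.960), 1.06 (0.874–1.27) and 1.10 (0.902–1.32), with overlapping intervals. In STZ-HFHC mice 1 and 2 hepatocyte-like nuclei had 0.701 (0.617–0.794) and 0.616 (0.550–0.686). Endothelial-like nuclei had 1.28 (0.896–1.77) and 1.09 (0.835–1.40), and stellate-like nuclei 0.799 (0.399–1.43) and 1.03 (0.723–1.42). The part of hepatocyte RNA in these levels was not tested. Over all nuclei, Il18 (ENSMUSG00000039217, chr9:50554827-50581840, plus strand) had 17.1 CPM (15.8–18.4) in ND against 17.1 (15.9–18.3) and 14.7 (13.7–15.8) in STZ-HFHC mice 1 and 2. The ratios were 1.00 (0.902–1.11) and 0.863 (0.780–0.954). The classes differed from this even total. Hepatocyte-like nuclei had 16.9 CPM (15.3–18.7) in ND against 10.6 (9.34–12.0) and 10.4 (9.28–11.6), with ratios of 0.628 (0.533–0.739) and 0.614 (0.528–0.714). Macrophage-like nuclei had 29.5 (19.6–42.7), 43.0 (37.2–49.6) and 34.6 CPM (28.7–41.4), with ratios of 1.46 (0.977–2.25) and 1.17 (0.771–1.84) whose intervals include 1. Per macrophage marker UMI these ratios were 0.788 (0.528–1.22) and 0.916 (0.603–1.44), so their direction turned with the scaling in both mice. Monocyte-like nuclei had 74.2 CPM from 6 UMIs in ND against 27.1 and 39.3, with ratios of 0.366 (0.153–1.06) and 0.530 (0.222–1.53). Stellate-like nuclei had ratios of 0.357 (0.173–0.663) and 0.590 (0.396–0.863). Cluster 6 alone had 60.1 and 52.2 CPM, 2.03 (1.34–3.17) and 1.76 (1.12–2.84) times the 29.7 CPM of ND cluster 20, whereas cluster 8 had 17.7 and 22.0 CPM. Of all Il18 UMIs, macrophage-like nuclei held 3.84%, 25.5% and 14.5%, and hepatocyte-like nuclei 52.3%, 33% and 39.4%. Of the UMIs of all genes, macrophage-like nuclei held 2.22%, 10.1% and 6.18%, and hepatocyte-like nuclei 52.7%, 53.1% and 55.9%.

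Nlrp3, the inflammasome sensor, was higher in both STZ-HFHC libraries as a whole, and its highest levels lay in macrophage-like and monocyte-like nuclei and cluster 7. Over all nuclei, Nlrp3 (ENSMUSG00000032691, chr11:59541568-59566956, plus strand) had 82 UMIs in ND against 449 and 302 in STZ-HFHC mice 1 and 2, or 1.92 (1.53–2.38), 10.1 (9.21–11.1) and 5.43 CPM (4.83–6.08). The ratios were 5.27 (4.16–6.76) and 2.83 (2.21–3.66). Within macrophage-like nuclei the difference was smaller and was clear in 1 mouse: 16.9 CPM (9.65–27.4) in ND against 41.3 (35.5–47.7) and 19.5 (15.1–24.7) in STZ-HFHC mice 1 and 2, with ratios of 2.45 (1.47–4.37) and 1.15 (0.662–2.13). Cluster 6 had 60.1 and 32.7 CPM against 16.5 in ND cluster 20, with ratios of 3.65 (2.15–6.67) and 1.98 (1.09–3.82), and cluster 8 had 13.3 and 9.99. Per macrophage marker UMI the class ratios were 1.32 (0.793–2.36) and 0.903 (0.518–1.67), so the direction in STZ-HFHC 2 turned with the scaling. Monocyte-like nuclei had 40.7 CPM (30.6–53.1) and 27.9 (18.4–40.6) in STZ-HFHC mice 1 and 2, against 24.7 from 2 UMIs in ND. Hepatocyte-like nuclei had 0.621, 1.87 and 1.58 CPM. Of the 57, 56 and 32 macrophage-like nuclei with an Il1b UMI, 3, 9 and 2 also had an Nlrp3 UMI. Among all 242, 1745 and 1178 macrophage-like nuclei, 15, 157 and 59 had an Nlrp3 UMI. Whether the overlap differed from that of independent detection was not tested.

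**Figure D3:**
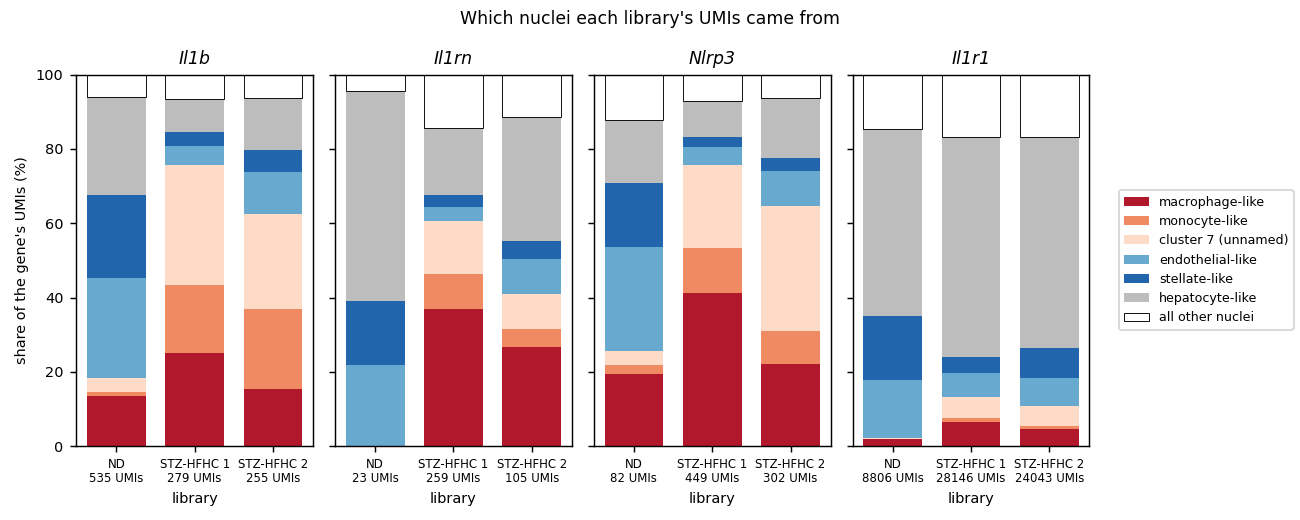
Share (percent) of the UMIs of Il1b, Il1rn, Nlrp3 and Il1r1 that came from each of 6 classes and from all other nuclei, stacked to 100% for each library. Macrophage-like nuclei held 13.6%, 25.1% and 15.3% of Il1b UMIs and 19.5%, 41.2% and 22.2% of Nlrp3 UMIs in ND, STZ-HFHC 1 and STZ-HFHC 2, while hepatocyte-like nuclei held 50.4%, 59.1% and 56.9% of Il1r1 UMIs. Of the UMIs of all genes, macrophage-like nuclei held 2.22%, 10.1% and 6.18%. Hepatocyte-like nuclei held 52.7%, 53.1% and 55.9% of them, close to their Il1r1 shares.

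Il1r1, the signalling receptor of interleukin-1, had by far the most UMIs of the members and was higher in both STZ-HFHC livers in hepatocyte-like nuclei. Over all nuclei, Il1r1 (ENSMUSG00000026072, chr1:40225080-40317257, plus strand) had 206 CPM (202–211) in ND against 635 (627–642) and 432 (427–438) in STZ-HFHC mice 1 and 2, with ratios of 3.08 (3.01–3.15) and 2.10 (2.05–2.15). Hepatocyte-like nuclei had 197 (191–203), 707 (696–717) and 440 CPM (432–447), a mean log2 ratio of 1.5 ± 0.48 (SD, n = 2 mice). The 3 intervals were far apart, and so were the STZ-HFHC mice from each other. The highest levels lay in clusters led by Glul and Lgr5, genes of the hepatocytes around the central vein: cluster 16 of ND had 301 CPM (283–320) and cluster 14 of both STZ-HFHC mice had 1082 (1044–1120) and 664 (639–689). These clusters were left unnamed because only 1 of 10 hepatocyte markers was raised in each at every naming step.

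Other classes had Il1r1 at levels near those of hepatocyte-like nuclei, and those levels are set against the hepatocyte RNA in the same droplets. Stellate-like nuclei had 214, 611 and 495 CPM, endothelial-like nuclei 194, 618 and 411, and macrophage-like nuclei 178, 403 and 323. Even B or plasma cell-like nuclei had 196, 506 and 368 CPM. Per 1000 UMIs of hepatocyte markers, macrophage-like nuclei had 10.5 (9.02–12.3), 43.3 (41.3–45.3) and 24.9 (23.5–26.5) Il1r1 UMIs and hepatocyte-like nuclei 10.1 (9.82–10.4), 46.7 (46.0–47.4) and 26.1 (25.6–26.5). The ratio of Il1r1 to hepatocyte RNA in macrophage-like nuclei thus did not exceed that of hepatocyte-like nuclei beyond counting error, and the part of hepatocyte RNA in their Il1r1 was not tested further. Stellate-like nuclei were above it in every library, at 14.7 (14.0–15.5), 85.7 (80.9–90.8) and 53.9 (51.5–56.3). Endothelial-like nuclei were also above it, at 12.5 (11.9–13.2), 65.5 (62.5–68.5) and 32.3 (30.8–33.8). Cluster 7 was above it in STZ-HFHC mice 1 and 2, at 71.5 and 36.9. The clusters led by Glul and Lgr5 were higher than all of these: cluster 16 had 25.5 in ND and cluster 14 had 105 and 68.2 in STZ-HFHC mice 1 and 2. The part of hepatocyte RNA in the stellate-like and endothelial-like values was not tested either.

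Tnfrsf1a and Tnfrsf1b, the 2 receptors of tumour necrosis factor, differed in how they were spread. Tnfrsf1a (ENSMUSG00000030341, chr6:125349362-125362484, plus strand) had 19.6 CPM (18.3–21) in ND against 17.4 (16.2–18.7) and 19.4 (18.3–20.6) in STZ-HFHC mice 1 and 2 over all nuclei. Its ratios were 0.887 (0.803–0.980) and 0.993 (0.906–1.09), and in macrophage-like nuclei, at 20.04, 21.9 and 24.1 CPM, 1.09 (0.663–1.89) and 1.2 (0.725–2.10), against 18.4, 13.2 and 16.7 CPM in hepatocyte-like nuclei. Per macrophage marker UMI the Tnfrsf1a ratios were 0.590 (0.358–1.02) and 0.942 (0.567–1.64), which turned the direction in both mice. In each library, 9 or 10 of the other classes had intervals that overlapped that of the highest class. Tnfrsf1b (ENSMUSG00000028599, chr4:145213463-145246870, minus strand) had 71.6 (69.1–74.2), 105 (102–108) and 104 CPM (101–106), with ratios of 1.46 (1.40–1.53) and 1.45 (1.39–1.51). Monocyte-like nuclei stood out in both STZ-HFHC libraries, with 424 CPM (390–461) from 563 UMIs and 253 (223–287) from 245 UMIs, which overlapped no other class. The 40 ND nuclei of the class had 4 UMIs and 49.4 CPM (13.5–127), and the ratios were 8.58 (3.33–31.6) and 5.13 (1.98–19.0). Macrophage-like nuclei had 81.2, 137 and 130 CPM, with ratios of 1.69 (1.33–2.17) and 1.60 (1.25–2.06), against 70.5, 87.2 and 100.2 CPM in hepatocyte-like nuclei. Per macrophage marker UMI those ratios became 0.912 (0.718–1.17) and 1.25 (0.979–1.61), so the direction in STZ-HFHC 1 turned with the scaling.

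**Figure D4:**
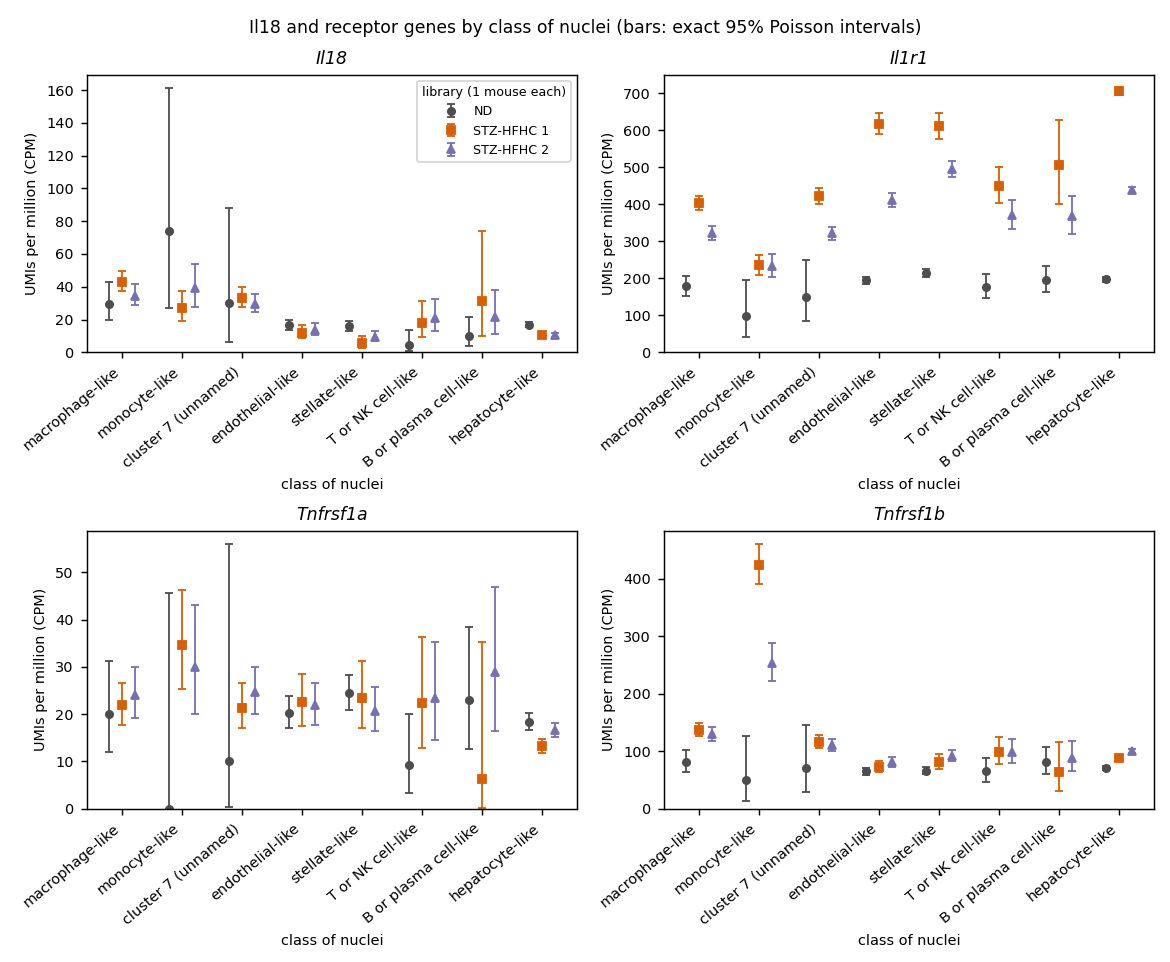
Level of Il18, Il1r1, Tnfrsf1a and Tnfrsf1b (1 panel each) in CPM in each of 8 classes (x axis) of the ND, STZ-HFHC 1 and STZ-HFHC 2 libraries, with exact 95% Poisson intervals. Tnfrsf1b in monocyte-like nuclei was 424 and 253 CPM in STZ-HFHC mice 1 and 2, while Il1r1 was 197, 707 and 440 CPM in hepatocyte-like nuclei.

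The members' ratios were read against those of all genes by 1 rule: at least 50 UMIs over the 3 libraries and at least 2-fold (log2 ratio of 1, with 0.5 added to each count) in 1 direction shared by both STZ-HFHC mice. In macrophage-like nuclei 13.9% of 10823 genes were higher and 4.42% were lower by this rule. Of the 8 members with enough UMIs, Tnf and Il1rn were higher and Il1b was lower, and with the ND count of 0 set to 3 UMIs Il1rn alone remained higher. Over all nuclei 13.6% of 16829 genes were higher and 4.74% lower, and of 9 members Tnf, Il1rn, Nlrp3 and Il1r1 were higher and 0 lower, since Il1b in STZ-HFHC 1 had a log2 ratio of −0.99. In hepatocyte-like nuclei the background was 8.46% higher and 5.7% lower, and of 8 members Nlrp3 and Il1r1 were higher and Il1b lower. In monocyte-like nuclei it was 11.5% and 7.4%, and of 7 members Tnf, Il1r1, Tnfrsf1a and Tnfrsf1b were higher and Il18, with 6 UMIs in ND, was lower. The ND counts of Tnf and Tnfrsf1a were 0 there, and at 3 UMIs neither was past the rule. In endothelial-like nuclei (8.85% higher, 5.14% lower), Nlrp3 and Il1r1 were higher and Il1b lower of 6 members. In stellate-like nuclei (11.3% and 8.56%), Il1r1 was higher and Il1b lower of 5. In cluster 7 (8.92% and 10.6%) the same genes were past the rule of 6, with 23 nuclei in ND. Il1b was thus lower by the rule in 5 of these 7 sets of nuclei, the exceptions being all nuclei and the monocyte-like nuclei. All the comparisons share the 1 ND library.

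**Figure D5:**
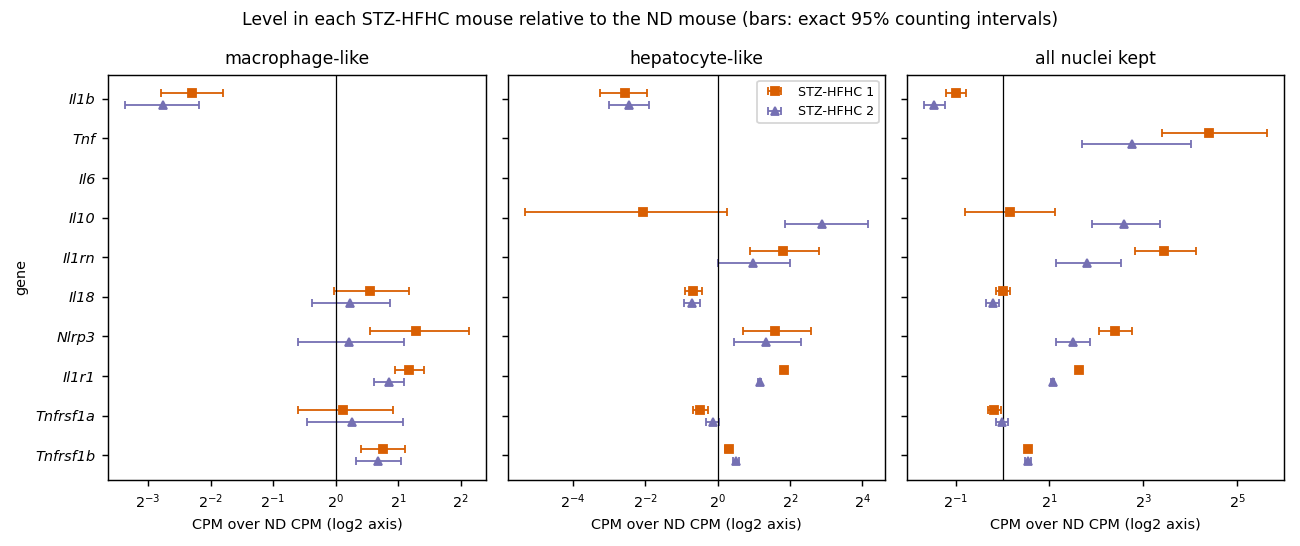
Ratio of the CPM of each STZ-HFHC mouse to ND (log2 axis, 1 is equal) for the members with at least 50 UMIs and more than 0 UMIs in ND, in macrophage-like nuclei, hepatocyte-like nuclei and all nuclei kept. Bars are exact 95% intervals of the ratio; Il1b lies below 1 in every panel, at 0.203 and 0.147 in macrophage-like nuclei, and Il1r1 above 1, at 3.08 and 2.10 over all nuclei.

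The other genes of these pathways were taken from 7 lists of 66 genes in all, 10 of them the members. In macrophage-like nuclei, 48 of the 66 had at least 50 UMIs, of which 11 were higher, 3 lower and 34 not past the rule. Their median log2 ratios were 0.71 and 0.30 in STZ-HFHC mice 1 and 2, beside 0.21 and 0.18 over all 10823 genes. By the rule 13.9% of all genes were higher in these nuclei and 4.42% lower, as given above, and the counts of short lists are read beside these shares. Of the inflammasome list, 3 of 9 were higher and 0 lower. These were the DNA sensor Aim2 (20.04, 92.3 and 57.9 CPM in ND, STZ-HFHC 1 and STZ-HFHC 2), Casp4, a caspase of the non-canonical inflammasome (12.7, 38.4 and 29.1 CPM), and P2rx7, the ATP-gated channel that triggers NLRP3 (11.6, 79.2 and 79.7 CPM). Hepatocyte-like nuclei had 2.49, 6.71 and 4.44 CPM of Aim2, 3.11, 5.74 and 4.41 of Casp4 and 2.44, 4.08 and 4.73 of P2rx7. Of the list of Toll-like and IL-1 receptor signalling, 2 of 14 were higher, close to the share over all genes: Tlr4, the endotoxin receptor, at 13.7, 70.0 and 42.8 CPM, and Relb, an NF-κB subunit, at 6.33, 21.4 and 13.7 CPM. In hepatocyte-like nuclei these had 2.31, 5.27 and 4.28 CPM and 2.71, 9.39 and 5.95 CPM.

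The TNF list had 2 of 9 genes higher, Tnf itself and Tnfaip3, the NF-κB inhibitor A20, at 3.16, 40.6 and 19.5 CPM. The ND value of Tnfaip3 rests on 3 UMIs, and its hepatocyte-like levels were 1.38, 13.9 and 6.69 CPM. Of the list of interleukin-6 and interleukin-10 ligands and receptors, 2 of 5 were higher: Il10ra, the interleukin-10 receptor chain, at 28.5, 85 and 72.7 CPM, and Osmr, the oncostatin M receptor, at 2.11, 11.2 and 14.3 CPM. The ND value of Osmr rests on 2 UMIs. Hepatocyte-like nuclei had 1.64, 5.91 and 4.79 CPM of Il10ra and 3.15, 5.18 and 4.44 of Osmr. The IL-1 list had 1 of 7 higher (Il1rn) and 2 lower, Il1b and Il1rap, the accessory chain of the interleukin-1 receptor, which had 419, 122 and 189 CPM beside 444, 203 and 262 in hepatocyte-like nuclei. Of the genes that hepatocytes switch on in answer to interleukin-1 and interleukin-6, 4 had enough UMIs. Saa1, serum amyloid A, was higher at 1.05, 10.7 and 5.82 CPM and Hamp, the iron hormone hepcidin, was lower at 277, 77.0 and 44.5 CPM. The ND value of Saa1 rests on 1 UMI. In hepatocyte-like nuclei Saa1 had 3.20, 8.03 and 4.24 CPM and Hamp 388, 109.5 and 62.0, and the part of hepatocyte RNA in these values was not tested. The remaining list of 2 cytokine genes had none with 50 UMIs. In hepatocyte-like nuclei, where 8.46% of all genes were higher and 5.7% lower, 11 of 56 genes of the lists were higher and 2 lower, with medians of 0.49 and 0.38 beside 0.10 and 0.10 over all genes, and in monocyte-like nuclei, where the shares were 11.5% and 7.4%, 10 of 38 were higher and 3 lower. The medians there were 0.69 and 0.29 beside 0.03 and 0.01 over all genes, with 40 nuclei in ND.

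Across 38 sums of 1 class in 1 library, each of at least 20 nuclei, the genes whose log2(CPM + 1) was most alike by Pearson's r were named for each member. They were Trim25 (0.76), Igsf6 (0.74) and Csf2rb (0.73) for Il1b, and Gm47754 (0.85), Matk (0.83) and Acod1 (0.81) for Tnf. For Il1rn they were Cxcl9 (0.84), Tuba1b (0.83) and Cstb (0.82), and for Nlrp3 Batf3 (0.89), Clec4a3 (0.87) and Lst1 (0.87). The Il1r1 pattern was closest to Cyp2a22 (0.86), Tle1 (0.86) and Zbtb16 (0.83), and that of Tnfrsf1b to Nipa2 (0.78), Acod1 (0.77) and Ms4a4a (0.77). For Il18, Nus1 (0.80), Hpgd (0.79) and Ier3ip1 (0.79) were closest, for Tnfrsf1a Zbtb7b (0.84), 1700017B05Rik (0.83) and Fubp3 (0.83), and for Il10 Gapvd1, 5830416I19Rik and Copa at 0.70, 0.70 and 0.65. Il6 had too few UMIs. The 38 points share 3 libraries and their depth, so these values are descriptions.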

How the data were processed

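Libraries were made from nuclei of frozen liver with the 10x Chromium 3′ v3.1 kit. Per the submitters' processing notes, Cell Ranger 7.0.1 and mm10 were used; whether intronic reads were counted is not given in the sources used here. The deposited values are raw UMI counts for each gene in each barcode, which the authors did not normalize. Of the gene IDs, 32158 (99.6%) were in the GENCODE M21 annotation of GRCm38.

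Barcodes with 200 to 5000 genes and at most 5% mitochondrial UMIs were kept; the limit of 5000 genes removed 889, 914 and 612 barcodes in ND, STZ-HFHC 1 and STZ-HFHC 2. Nuclei of all libraries were clustered together with Scanpy 1.11.5 (2000 variable genes, 30 components, 15 neighbours, Leiden resolution 1), leaving out the 66 pathway genes and without batch correction. A marker was raised at 2-fold or more over the median of the other clusters of the main library, with UMIs in at least 5% of the cluster's nuclei. A cluster was named where at least 3 markers and 33% of a list were raised. Clusters that mixed lists, were led by mitochondrial genes or were shallow were left unnamed. For clusters with too few markers or led by mitochondrial genes, 2 further steps could give the hepatocyte name. The within-library comparison and these 2 steps were chosen after the clusters had been seen, because hepatocyte RNA filled every class of ND. Doublets were not removed: Scrublet by its own threshold marked 1, 0 and 0 nuclei, so leaving out the highest 8% of scores was an alternative. UMIs were summed per class and library and given as CPM (counts per 1000000 UMIs), with exact Poisson intervals; ratios have conditional exact binomial intervals and shares exact Clopper-Pearson intervals (SciPy 1.17.1). These cover counting error only. The fold rule was tested on simulated data.

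The members and lists were chosen with earlier results of these data known. Besides the members, the genes named were those of the fixed lists past the fold rule in macrophage-like nuclei and the 3 genes most alike each member with at least 50 UMIs; cluster leading genes and single markers were picked once their values were known.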

Additional observations from a re-analysis of the deposited data

How the results depend on the processing

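Of the results recomputed under other settings, 114 of the main values stayed within the limits set for a move and 49 did not. Of the values of other single genes, 151 stayed, 60 moved and 2 changed the sign of the log2 ratio. The mean log2 ratio of Il1b in macrophage-like nuclei was below 0 in 17 of 17 alternatives (−4.35 to −1.63), and those of Il1rn (0.14 to 5.49), Nlrp3 (0.09 to 1.44) and Tnfrsf1b (0.09 to 1.78) were above 0 in 17 of 17. Over all nuclei Il1b was below 0 in 6 of 6 (−1.45 to −0.99), and Il1r1 in hepatocyte-like nuclei was above 0 in 8 of 8 (1.45 to 1.58). Macrophage-like Il18 was above 0 in 15 of 17 (lowest −0.41) and Tnfrsf1a in 11 of 17 (lowest −0.99), from main values of 0.37 and 0.17. Among values past a log2 ratio of 1, the changes of sign were in Tnf and Il10. Tnf was at −0.48 with nuclei thinned to 1000 UMIs, on 18 UMIs. There ND had 0 CPM in 33 nuclei against 13.1 and 7.74 CPM in STZ-HFHC mice 1 and 2. The sign thus came from the 0.5 added to each count, and the counts did not turn. Il10 was at 1.25 in nuclei with UMIs of at least 2 macrophage markers, a far larger set whose size is given below, and the cause was not tested.

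Where the main Il1b ratio was −2.53, it was −2.13 without the highest 8% of Scrublet scores, −4.35 thinned, −1.63 in nuclei chosen by 2 markers, and, in settings chosen after seeing the data, −2.09 without cluster 8 and −3.15 per macrophage marker UMI. Macrophage-like Il1b in ND was 110.7 CPM at resolution 0.5 (13 UMIs, 57 nuclei), 455 thinned (15 UMIs, 33 nuclei) and 22.5 by 2 markers; in STZ-HFHC 1 it was 21.6 without high Scrublet scores, 21.8 at resolution 0.5, 23.5 thinned and 8.34 by 2 markers; in STZ-HFHC 2 it was 15.8, 24.8, 21.3 and 6.32, and 16.7 without cluster 8. The macrophage-like share of Il1b UMIs in ND was 7.31% without barcode limits, 17.1% without high Scrublet scores, 2.43% at resolution 0.5 and 67.7% by 2 markers; in STZ-HFHC 1 it was 15.04%, then 39.1% at resolution 0.5, 83.9% by 2 markers and 18.3% without cluster 8; in STZ-HFHC 2 it was 35.3%, 74.5% and 9.41% under the last 3. The 2-marker setting held 2339, 5458 and 5547 of the 8494, 8921 and 10921 nuclei kept in ND, STZ-HFHC 1 and STZ-HFHC 2. The main macrophage-like class held 242, 1745 and 1178, so most nuclei of the 2-marker setting were of other classes. Its shares and ratio are not values of macrophage-like nuclei alone. The macrophage-like share of Il1b UMIs thus depended on which nuclei were called macrophage-like.

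In macrophage-like nuclei 1508 genes were higher and 478 lower. The higher count was 899 thinned, 2409 without a filter on UMIs and 764 per macrophage marker UMI. The lower count was 786 without high Scrublet scores, 1238 at resolution 0.5, 756 by 2 markers, 790 without cluster 8, 13252 without a filter, 1270 per marker UMI and 62 after subtraction of the hepatocyte-like level. Without a filter, genes with 0 UMIs also counted as lower, because 0.5 was added to each count. The ND total was 948083 UMIs against 4483225 and 3438346, and the median log2 ratio was then −0.77. The 13252 is therefore not a count of genes that differed. Members higher numbered 4 by 2 markers and after subtraction, and members lower 2 without a filter (Il1b, and Il6 on 2 UMIs). The shares of all genes past the rule are not printed for each setting. The member counts in this paragraph are therefore not read as results about the members. With either STZ-HFHC mouse left out, the counts were 1648 to 2264 genes higher, 661 to 928 lower and 2 to 4 members higher. Over all nuclei members lower numbered 1 with median-of-ratios size factors, 1 without mitochondrial and the 50 most abundant genes in the total, and 2 without barcode limits (Il1b and Il6); with either mouse left out they numbered 0 to 1 and all genes lower 1007 to 1844. The median log2 ratio of all macrophage-like genes was 0.20, 0.06 with median-of-ratios factors and −0.43 per marker UMI, so changes per CPM and per marker UMI differ by that shift. With each library clustered alone, 0 ND nuclei were macrophage-like and no value was obtained. No paired analysis was possible because the ND group has 1 sample and no replicate number is shared by 2 pairs of samples. Depth limits Tnf, Il6, Il10 and every monocyte-like value of ND, which has 40 nuclei and 80900 UMIs.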
